A study of Mus musculus with 6 samples.

Results

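The genes described here are 40 genes of glycolysis and of the response to low oxygen, taken by symbol from a table of 26187 genes. They comprise 4 transporters of glucose and lactate, 17 glycolytic enzymes, 4 PFKFB enzymes and 4 pyruvate dehydrogenase kinases that regulate the pathway, 2 HIF factors and 9 hypoxia-induced genes. Of the 40, 39 have a row, and Adm, the gene of the vasodilator peptide adrenomedullin, was not analysed here. All libraries come from MC3T3-E1, an established pre-osteoblast line from mouse calvaria. Both groups were grown in osteoconductive (OC) medium, which contains β-glycerophosphate and ascorbic acid. The PAKG group received PAKG–8diol–PEG(S) MPs, small microparticles of a polyester of α-ketoglutarate, 1,8-octanediol and polyethylene glycol, at 30 μg/mL for 2 days. The OC group received no MPs. Poly(A) RNA of 3 samples per group was sequenced. No group received particles of another polymer, so an effect of α-ketoglutarate and an effect of taking up particles cannot be told apart. The methods describe replicate wells in each group for cell experiments in general and do not say how the RNA samples relate to wells or repeats. The spread on which each p-value rests is therefore that of these samples alone and may be technical.

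Glycolysis splits glucose into pyruvate, which either enters the mitochondria through pyruvate dehydrogenase or is reduced to lactate and exported. Osteoblasts are known for a high rate of glycolysis. HIF-1α, the oxygen-sensitive subunit of the hypoxia-inducible factor, is marked for degradation by prolyl hydroxylases that consume oxygen and α-ketoglutarate, and when it is stable it induces many genes of glucose uptake, glycolysis and vessel growth. The libraries measure RNA only, so neither the amount of HIF-1α protein nor any flux was read, and in bulk RNA fewer cells of a type and less RNA per cell cannot be told apart.

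The values are the authors' FPKM, fragments per kilobase of transcript scaled to the library's total, which are given per length and so allow levels of different genes to be compared. FPKM sums were 289676 to 325818 per library and depth, estimated from low values, was 32300000 to 42400000 fragments, so that 1 fragment on a 1 kb transcript was worth 0.0236 to 0.031 FPKM. On the first principal component (43.9% of the variance) the groups lay apart, and on the second (25.1%) replicate 2 of both groups stood away from the other libraries. All 10 osteoblast markers were present, with a summed level of 6027 to 7150 FPKM in OC and 8754 to 9455 FPKM in PAKG, and 7 of them were called higher in PAKG. Markers of leukocytes (3 of 6 listed have a row) summed to at most 0.98 FPKM in a library, those of epithelial cells (6 of 6) to at most 0.89 FPKM and those of endothelial cells (3 of 6) to at most 0.03 FPKM. The mitochondrial share of the FPKM was 10.8% to 11.9% in OC and 9.53% to 10.7% in PAKG, and its part in the results was not tested. Adipocyte markers (6 of 6) summed to 1.5 FPKM in OC replicate 3, with Fabp4 at 0.58 and Adipoq at 0.36, against 0 to 0.07 in the other 5 libraries. Calls of members and of named genes from the other pathway lists that are lost without this library are given with and without it. Counts without it are given for all genes, the members, the called enzymes and the other pathway genes together. They are not given for each list. The part of these transcripts in the results was not tested.

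Of the 39 members with a row, 31 had a mean of at least 0.5 FPKM and were compared with limma on log2(FPKM + 0.1). With PAKG MPs, 7 members fell and 4 rose at an adjusted p under 0.05, called members from here on. Ndrg1, Slc2a1, Gapdh, Pgk1, Tpi1, Pfkp and Pdk3 fell, and Pdk2, Vegfa, Pfkfb4 and Pfkfb3 rose. Among all 12590 genes tested 14.7% were called, 5.97% higher and 8.73% lower, and among the 31 members 35.5% were called. The median log2 fold change of the members was -0.14, against -0.03 for all genes tested. Of the 31 members 20 had a negative value, and 44.5% of all genes tested had a positive one. In 16 members the 3 PAKG values did not overlap the 3 OC values, 11 of them lower and 5 higher in PAKG, and 33.4% of all genes tested did not overlap. With a fold change of at least 2 in addition, 1.45% of all genes and only Gapdh among the members remained, and that value depends on how copies of the gene are counted, as described below. With the replicate number as a block, 6 members were called higher and 13 lower, and 29.5% of all genes were called. Rescaling each library to a common sum (TPM) turned the balance over all genes from 751 higher and 1099 lower to 824 higher and 715 lower, with 10.3% of 14870 tested genes called, since the minimum of 0.5 then applied to TPM, and gave 3 higher and 6 lower members. Without OC replicate 3, 1 member was called higher and 3 lower (6.93% of all genes called), and without PAKG replicate 3 the counts were 2 and 3 (6.6%).

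**Figure D1:**
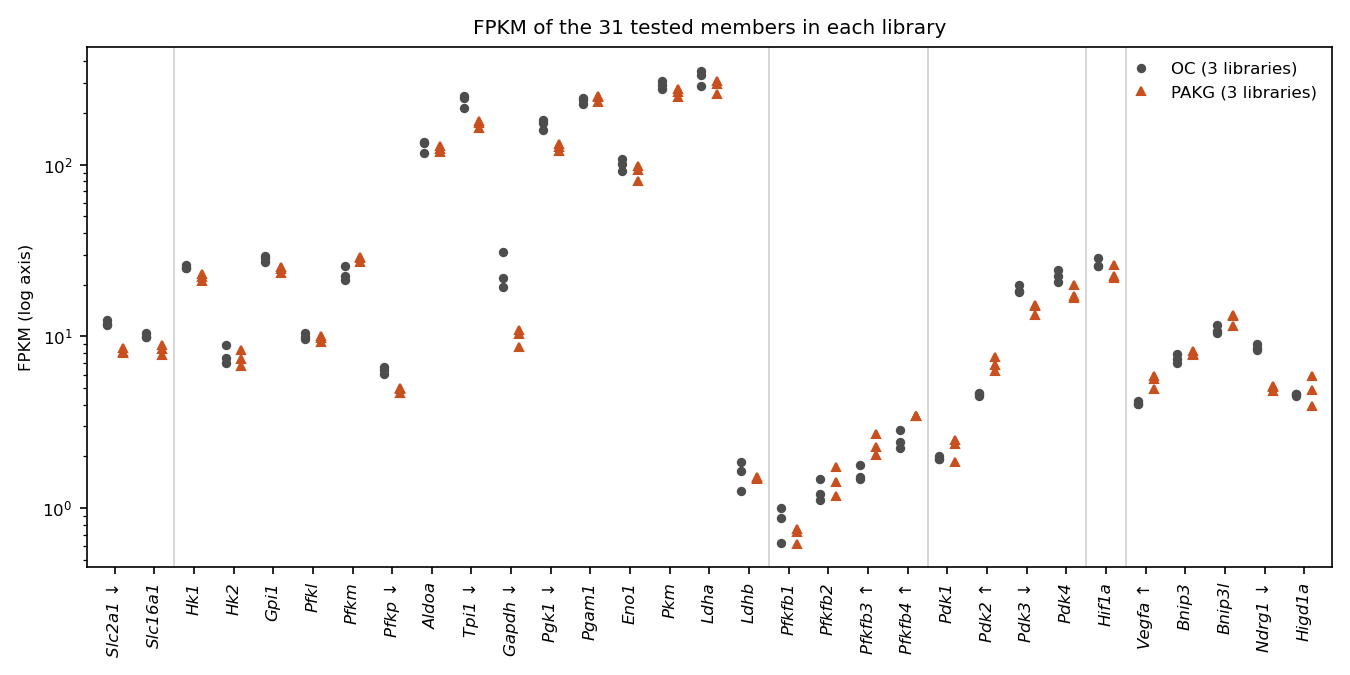
FPKM (log axis) of the 31 tested members in the 3 OC libraries (circles) and the 3 PAKG libraries (triangles), ordered by role and separated by grey lines. Arrows mark the 11 called members, and the points show that the enzymes from Aldoa to Ldha, apart from the own row of Gapdh, lie far above the regulators, with Ldha and Pkm highest among own rows.

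The promoters of 4 genes are shown because they belong to the called members with the smallest adjusted p among those with a window in the RefSeq promoter table used here, and because both directions of change are among them. The sequences are the 250 bases before the RefSeq start of the gene (GRCm38.p6), 5′ to 3′ on the strand of the gene. Capitals mark the core of the hypoxia response element, ACGTG or GCGTG, on either strand; the matches on both strands can overlap.
Slc2a1 (chr4:119108495-119108744, plus strand): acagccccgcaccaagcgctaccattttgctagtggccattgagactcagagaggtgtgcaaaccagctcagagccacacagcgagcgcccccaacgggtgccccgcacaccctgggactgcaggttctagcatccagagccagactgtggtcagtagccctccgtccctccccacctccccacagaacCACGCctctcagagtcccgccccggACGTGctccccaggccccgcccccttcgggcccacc
Gapdh (chr6:125165774-125166023, minus strand): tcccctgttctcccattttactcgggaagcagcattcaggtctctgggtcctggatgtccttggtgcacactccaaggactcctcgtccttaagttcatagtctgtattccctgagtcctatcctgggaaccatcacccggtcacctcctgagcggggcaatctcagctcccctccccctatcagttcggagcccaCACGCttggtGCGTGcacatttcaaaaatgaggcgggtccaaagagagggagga
Pdk2 (chr11:95041372-95041621, minus strand): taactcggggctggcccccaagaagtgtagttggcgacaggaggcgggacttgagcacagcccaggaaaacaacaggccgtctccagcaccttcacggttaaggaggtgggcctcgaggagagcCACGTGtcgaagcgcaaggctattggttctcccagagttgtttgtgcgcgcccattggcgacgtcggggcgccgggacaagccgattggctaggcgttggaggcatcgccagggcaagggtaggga
Pgk1 (chrX:106186850-106187099, plus strand): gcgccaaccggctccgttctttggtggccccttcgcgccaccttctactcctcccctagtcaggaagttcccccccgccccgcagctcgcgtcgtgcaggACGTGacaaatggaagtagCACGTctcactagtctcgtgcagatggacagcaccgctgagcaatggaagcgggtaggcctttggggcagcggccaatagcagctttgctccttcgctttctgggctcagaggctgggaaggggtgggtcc
Each of the 4 windows holds 2 matches. In Pdk2 these are the 2 strands of 1 stretch, CACGTG. The core ACGTG occurs before Slc2a1 and Pgk1, which fell, and before Pdk2, which rose. The window of Gapdh, which fell, holds GCGTG only. A window was found for 29 of the 31 tested members, and 23 of these, or 79.3%, hold at least 1 match, as do 58.7% of the 8839 windows of all genes tested. Among the called members with a window the match was present in 5 of 6 that fell and in 3 of 4 that rose, and among those not called in 15 of 19. Tpi1, which fell, and Vegfa, which rose, have no match in this window. A match is a run of letters and not a measured binding site.

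Glucose enters cells through facilitative transporters, and of the pair among the members Slc2a1 (GLUT1) was by far the more abundant. Slc2a10, of the same family and not a member, averaged 9.48 FPKM in OC and 10.8 FPKM in PAKG. It was not called (limma adjusted p = 0.264). Slc2a1 (ENSMUSG00000028645, GRCm38 chromosome 4, 119108711 to 119137983) was at 12.5, 11.8 and 11.7 FPKM in the OC libraries and at 8.52, 7.97 and 8.10 FPKM in the PAKG libraries. All PAKG values lay below all OC values, and the mean fell from 12.0 ± 0.435 to 8.20 ± 0.288 FPKM (SD, n = 3). On the log2 scale the difference was -0.54 ± 0.07 (standard error; limma adjusted p = 0.00235), and the call held in 15 of 15 alternatives, but not in a further test against a minimum fold of 1.2 (adjusted p = 0.0512). Slc2a3 (GLUT3), the high-affinity transporter of neurons, was at 0.03 to 0.06 FPKM in all 6 libraries, which is near the worth of single fragments.

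Lactate leaves through monocarboxylate transporters. Slc16a1 (MCT1) was at 9.88 to 10.5 FPKM in OC and at 7.83 to 8.92 FPKM in PAKG, without overlap. Its log2 fold change of -0.26 (standard error 0.08) missed the threshold (limma adjusted p = 0.0573) and passed it only with the replicate block (adjusted p = 0.034). Slc16a3 (MCT4), the exporter of strongly glycolytic cells, was at 0.09 to 0.2 FPKM and was not tested.

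Of the 17 glycolytic enzymes 15 were tested, and 4 fell and 0 rose. This is a share of 26.7% called, beside 14.7% of all genes tested. The median log2 fold change over the 15 was -0.15, and 13 of the values were negative. With the replicate block 7 fell and 1 rose, and 29.5% of all genes tested were called. Without OC replicate 3, only Gapdh of the 4 called enzymes stayed called, by its own row, and 6.93% of all genes were called. The same held without PAKG replicate 3, with 6.6% of all genes called. The count of 4 therefore depends on single libraries. The called enzymes were Pfkp in the preparatory phase and Tpi1, Gapdh and Pgk1, which act one after the other in the middle of the pathway. The enzymes before and after this stretch with the highest levels, Aldoa, Pgam1, Eno1, Pkm and Ldha, were not called.

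Tpi1 encodes triosephosphate isomerase, which interconverts the 2 triose phosphates made by aldolase. Tpi1 (ENSMUSG00000023456, chromosome 6, 124810586 to 124814296) was at 253, 213 and 245 FPKM in OC and at 181, 164 and 175 FPKM in PAKG. The highest PAKG value was below the lowest OC value, and the mean fell from 237 ± 20.9 to 173 ± 8.37 FPKM (SD, n = 3). On the log2 scale the difference was -0.45 ± 0.09 (standard error; limma adjusted p = 0.0146). The call was lost without OC replicate 1 (adjusted p = 0.0598), OC replicate 3 (0.0703) or PAKG replicate 3 (0.0678). Spsb2 overlaps Tpi1 on the other strand and was at 9.60 FPKM in OC and 9.89 FPKM in PAKG, a small level beside that of Tpi1.

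Pgk1 encodes phosphoglycerate kinase, which makes the first ATP of the pathway's second phase. Pgk1 (ENSMUSG00000062070, chromosome X, 106187100 to 106203699) was at 174, 160 and 182 FPKM in OC and at 132, 120 and 127 FPKM in PAKG. The groups did not overlap, and the mean fell from 172 ± 11.3 to 126 ± 6.03 FPKM (SD, n = 3). On the log2 scale the difference was -0.44 ± 0.08 (standard error; limma adjusted p = 0.00984), or -0.45 with 3 near-identical copies summed (adjusted p = 0.00956). The call was lost without OC replicate 3 (adjusted p = 0.0513) or PAKG replicate 3 (0.0535).

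Pfkp encodes the platelet-type subunit of phosphofructokinase, the committed step of glycolysis. Pfkp (ENSMUSG00000021196, chromosome 13, 6579768 to 6648777) was at 6.06, 6.61 and 6.34 FPKM in OC and at 5.04, 4.93 and 4.71 FPKM in PAKG. All PAKG values lay below all OC values, and the log2 fold change came to -0.37 ± 0.08 (standard error; limma adjusted p = 0.0173). The call was lost after TPM rescaling (adjusted p = 0.0807) and without OC replicate 2 (0.0513), OC replicate 3 (0.0755) or PAKG replicate 3 (0.0953). Pitrm1 overlaps Pfkp on the other strand with a mean of 25.7 FPKM in OC and 20.0 FPKM in PAKG, and also fell, with a log2 fold change of -0.36 (adjusted p = 0.0135). The kit keeps the strand, but whether strand was used in counting is not stated, so the part of Pitrm1 reads in the value of Pfkp was not tested.

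Gapdh encodes glyceraldehyde-3-phosphate dehydrogenase, which oxidizes the triose phosphate and is often used as a reference gene. Its own row (ENSMUSG00000057666, chromosome 6, 125161715 to 125166467) was at 19.4, 22.0 and 31.2 FPKM in OC and at 10.9, 8.69 and 10.3 FPKM in PAKG. The groups did not overlap, and OC replicate 3 was the highest. For this row the log2 fold change was -1.25 ± 0.18 (standard error; limma adjusted p = 0.00369), and the call held in 15 of 15 alternatives, with values from -1.39 to -1.05. However, 118 other rows count as near-identical copies, at 90% identity or more. They are mostly processed pseudogenes and carry nearly all of the signal. Among them is also the protein-coding gene Peli2, at 90.8% identity and a mean of 0.678 FPKM. The copy with the highest value, Gm7336 on chromosome 7, matches Gapdh with 99.8% identity over 1232 bases and had a mean of 258 FPKM, against 17.1 FPKM for the own row of Gapdh. The own row made up 0.77% to 1.29% of the sum in OC and 0.49% to 0.6% in PAKG.

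Summed over Gapdh and its copies, the level was 2519, 2180 and 2423 FPKM in OC and 1814, 1769 and 1818 FPKM in PAKG. These values did not overlap either, with means of 2374 ± 175 and 1800 ± 26.9 FPKM (SD, n = 3). The log2 fold change of the sum was -0.40 (limma adjusted p = 0.0343), so the direction and the call were kept while the fold change dropped below 2. Of the 118 copy rows 39 were tested, each with a negative log2 fold change between -0.58 and -0.10, and 14 were called lower and 0 higher. The shared direction holds for tested rows only. Gm8343, with a mean of 0.495 FPKM just under the filter, was at 0.2 to 0.23 FPKM in OC and 0.73 to 0.81 FPKM in PAKG. Reads of near-identical rows cannot be told apart with certainty, so the rows are not independent measurements, and the size of the change of Gapdh itself is uncertain.

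**Figure D2:**
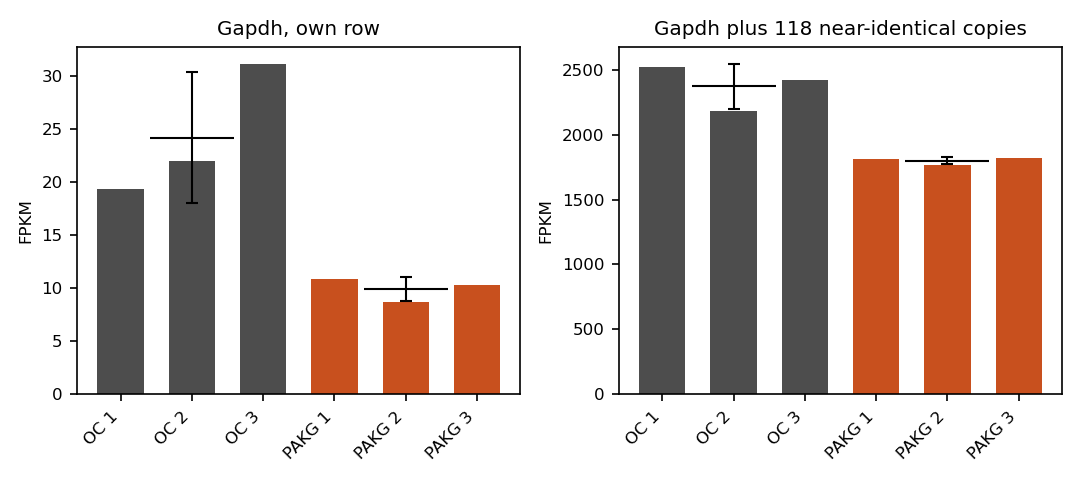
FPKM of the own row of Gapdh (left) and of Gapdh with its 118 near-identical copies summed (right), with 1 bar per library and black lines and error bars for the mean and SD of 3 libraries. PAKG lies below OC on both sides, with a ratio of the means of 0.758 on the right and a larger drop on the left.

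Of the enzymes around this stretch, Pgam1 and Aldoa had log2 fold changes near 0. Pgam1, phosphoglycerate mutase, was at 226 to 245 FPKM in OC and 232 to 250 FPKM in PAKG, with a log2 fold change of 0.04 (95% interval -0.13 to 0.21). Aldoa, the main aldolase, was at 117 to 135 and at 119 to 129 FPKM (log2 fold change -0.05, 95% interval -0.24 to 0.14). Both intervals lie above those of Tpi1 (-0.655 to -0.245) and Pgk1 (-0.627 to -0.262). The intervals of Eno1, Pkm and Ldha reach lower and overlap those of Tpi1 and Pgk1. A second gene ID with the symbol Aldoa was at 1.1 to 2.14 FPKM and was not used.

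Ldha, which reduces pyruvate to lactate, had the highest level of all members counted by their own rows, at 353, 289 and 334 FPKM in OC and 308, 258 and 294 FPKM in PAKG. The groups overlapped, and its log2 fold change of -0.18 (95% interval -0.43 to 0.06) was called only with the replicate block (limma adjusted p = 0.309 without and 0.0304 with it). Pkm, the pyruvate kinase of proliferating and many adult tissues, was at 276 to 308 and 247 to 277 FPKM (log2 fold change -0.15). Eno1, the ubiquitous enolase, was at 91.4 to 108 and 80.7 to 98.2 FPKM (log2 fold change -0.14). Of the Eno1 signal, 73.2% to 77.0% lay on its own row and the rest on 4 copies, and summing them left the log2 fold change at -0.14.

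At the entry of the pathway, Hk1 and Gpi1 were lower in each PAKG library than in each OC library without passing the threshold. Hk1, the constitutive hexokinase, was at 25.1 to 26.1 FPKM in OC and 21.1 to 23.1 FPKM in PAKG (limma adjusted p = 0.0822, with the block 0.0218). Gpi1, glucose-6-phosphate isomerase, was at 27.2 to 29.5 and 23.4 to 25.4 FPKM (adjusted p = 0.0783, with the block 0.0163). Hk2, the inducible hexokinase, was at 6.97 to 8.88 FPKM in OC and 6.75 to 8.38 FPKM in PAKG and overlapped. Ldhb, which favours the oxidation of lactate, was at 1.26 to 1.85 FPKM, and Pfkl, the liver-type phosphofructokinase, at 9.22 to 10.4 FPKM over all libraries, and neither was called. Aldoc and Eno2, the isoforms of brain, did not exceed 0.22 and 0.3 FPKM.

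Summed over the own rows of the 17 enzymes, glycolytic RNA was at 1703, 1497 and 1658 FPKM in OC and at 1486, 1326 and 1436 FPKM in PAKG. The PAKG sums all lay below the OC sums, with means of 1619 ± 108 and 1416 ± 81.8 FPKM (SD, n = 3), a difference of -12.6%. The exact permutation test (2-sided) gave p = 0.1, which is the smallest p that 3 against 3 libraries allow. Without the own row of Gapdh the sums overlapped narrowly, with 1475.2 FPKM in OC replicate 2 and 1475.5 FPKM in PAKG replicate 1. The means then differed by -11.8%, with an exact permutation p of 0.2. As a share of each library's FPKM the same sums did not overlap. They made up 0.499% to 0.533% in OC and 0.455% to 0.475% in PAKG, with an exact permutation p of 0.1. With near-identical copies included the difference in FPKM was -19.0%. Gapdh with its copies held most of that sum, at 2374 of 4056 FPKM in OC and 1800 of 3286 FPKM in PAKG. It differed by -24.2% alone, so the -19.0% does not describe the enzymes in general. The share held by the own rows of all 17 enzymes was 0.518% ± 0.018 in OC and 0.468% ± 0.01 in PAKG.

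Isoforms of a step can replace each other, so the share of each isoform in its family was taken per library. In the phosphofructokinases, Pfkm, the muscle-type subunit, held 60.8%, 58.0% and 56.8% of the family's FPKM in OC and 65.7%, 65.7% and 66.2% in PAKG. The share of Pfkp was 14.4%, 17.0% and 16.9% in OC and 11.5%, 12.0% and 11.0% in PAKG, and that of Pfkl was 25.4% ± 0.85 and 22.7% ± 0.26 (SD, n = 3). None of these 3 shares overlapped between the groups, while the summed level of the family did (39.5 ± 2.33 and 42.7 ± 1.37 FPKM). Pfkm itself was at 25.6, 22.5 and 21.3 FPKM in OC and 28.9, 27.1 and 28.5 FPKM in PAKG. Its log2 fold change of 0.29 (standard error 0.08) had a limma adjusted p of 0.0605, and was called with the block (0.0196), after median-ratio scaling (0.0353) and without OC replicate 1 (0.0402). Across the 8 families 19 shares were tested with the exact permutation test, 2-sided, in which no p can be under 0.1, and the smallest value adjusted over the 19 was 0.317. Within the pairs Aldoa and Aldoc, Eno1 and Eno2, and Ldha and Ldhb, the first gene held over 99% in each library; Eno3, another enolase and not a member, was left out of its pair and is described further on.

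**Figure D3:**
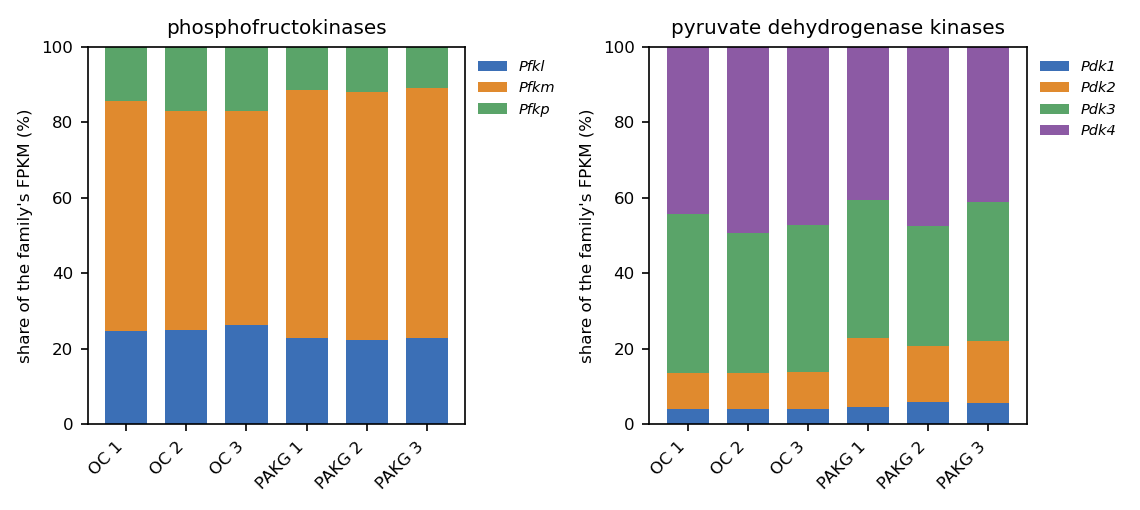
Share of each isoform (%) in the summed FPKM of the phosphofructokinases (left) and the pyruvate dehydrogenase kinases (right), with 1 stacked bar per library. The Pfkm band is wider and the Pfkp band narrower in the 3 PAKG libraries, and the Pdk2 band grows from 9.59% to 16.6% on average.

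The PFKFB enzymes make and break fructose-2,6-bisphosphate, the strongest activator of phosphofructokinase. Of the 4, 2 rose and 0 fell, beside 5.97% higher and 8.73% lower among all genes tested. Pfkfb3, the isoform with the highest kinase activity, (ENSMUSG00000026773, chromosome 2, 11471433 to 11554077) was at 1.48, 1.78 and 1.52 FPKM in OC and at 2.05, 2.69 and 2.26 FPKM in PAKG. All PAKG values lay above all OC values, and the log2 fold change came to 0.52 ± 0.14 (standard error; limma adjusted p = 0.0427). Pfkfb4 (ENSMUSG00000025648, chromosome 9, 108991778 to 109032228) was at 2.85, 2.44 and 2.23 FPKM in OC and at 3.45, 3.45 and 3.42 FPKM in PAKG. The PAKG values were tightly grouped above those of OC, with a log2 difference of 0.45 ± 0.11 (standard error; limma adjusted p = 0.0312).

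Both calls were close to the threshold. That of Pfkfb3 was lost with any 1 of 5 libraries left out, namely OC replicate 1 (limma adjusted p = 0.126), OC replicate 3 (0.14), PAKG replicate 1 (0.0539), PAKG replicate 2 (0.0757) or PAKG replicate 3 (0.124), and after TPM rescaling (0.0743) or with no filter (0.107). That of Pfkfb4 was lost without OC replicate 2 (0.0763), OC replicate 3 (0.112), PAKG replicate 1 (0.0901) or PAKG replicate 3 (0.111), without replicate 2 of both groups (0.0667) and with no filter (0.0752). Pfkfb1 and Pfkfb2, the isoforms known from liver and heart, were at 0.62 to 1 FPKM and 1.11 to 1.74 FPKM, overlapped and were not called.

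Pyruvate dehydrogenase kinases phosphorylate and so switch off the complex that feeds pyruvate into the mitochondria. Of the 4, 1 rose and 1 fell, beside 5.97% higher and 8.73% lower among all genes tested. Pdk2 (ENSMUSG00000038967, chromosome 11, 95026258 to 95041354) was at 4.47, 4.69 and 4.65 FPKM in OC and at 7.62, 6.27 and 6.79 FPKM in PAKG. All PAKG values exceeded the OC values, and the mean rose from 4.60 ± 0.117 to 6.89 ± 0.681 FPKM (SD, n = 3). On the log2 scale the difference was 0.57 ± 0.09 (standard error; limma adjusted p = 0.00644), and the call held in 15 of 15 alternatives, but not against a minimum fold of 1.2 (adjusted p = 0.102). Pdk3 (ENSMUSG00000035232, chromosome X, 93764607 to 93832201) was at 20.0, 18.2 and 18.5 FPKM in OC and at 15.1, 13.3 and 15.3 FPKM in PAKG. It fell without overlap, with a log2 difference of -0.37 ± 0.08 (standard error; limma adjusted p = 0.0219), and the call was lost without OC replicate 1 (0.0803), OC replicate 3 (0.0757) or PAKG replicate 3 (0.0623).

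Pdk4, the isoform induced by fasting and fatty acids, was the most abundant of the family in OC. It was at 20.9, 24.4 and 22.4 FPKM in OC and at 16.8, 20.0 and 17.1 FPKM in PAKG, without overlap. Its log2 fold change was -0.33 (standard error 0.09, limma adjusted p = 0.0575), and it was called lower with the replicate block (0.00571), without PAKG replicate 2 (0.018) and without replicate 2 of both groups (0.0151). Pdk1, a well-known HIF target, was at 1.92 to 2.01 FPKM in OC and 1.85 to 2.48 FPKM in PAKG and was not called (adjusted p = 0.442).

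The summed level of the 4 kinases was 47.3, 49.3 and 47.4 FPKM in OC and 41.4, 42.0 and 41.6 FPKM in PAKG. Within it the share of Pdk2 went from 9.46%, 9.51% and 9.81% in OC to 18.4%, 14.9% and 16.3% in PAKG, while Pdk3 held 39.4% ± 2.69 and 35.0% ± 2.87 (SD, n = 3). The exact permutation test gave p = 0.1 for the sum and for the shares of Pdk1, Pdk2 and Pdk3, again the smallest possible value.

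**Figure D4:**
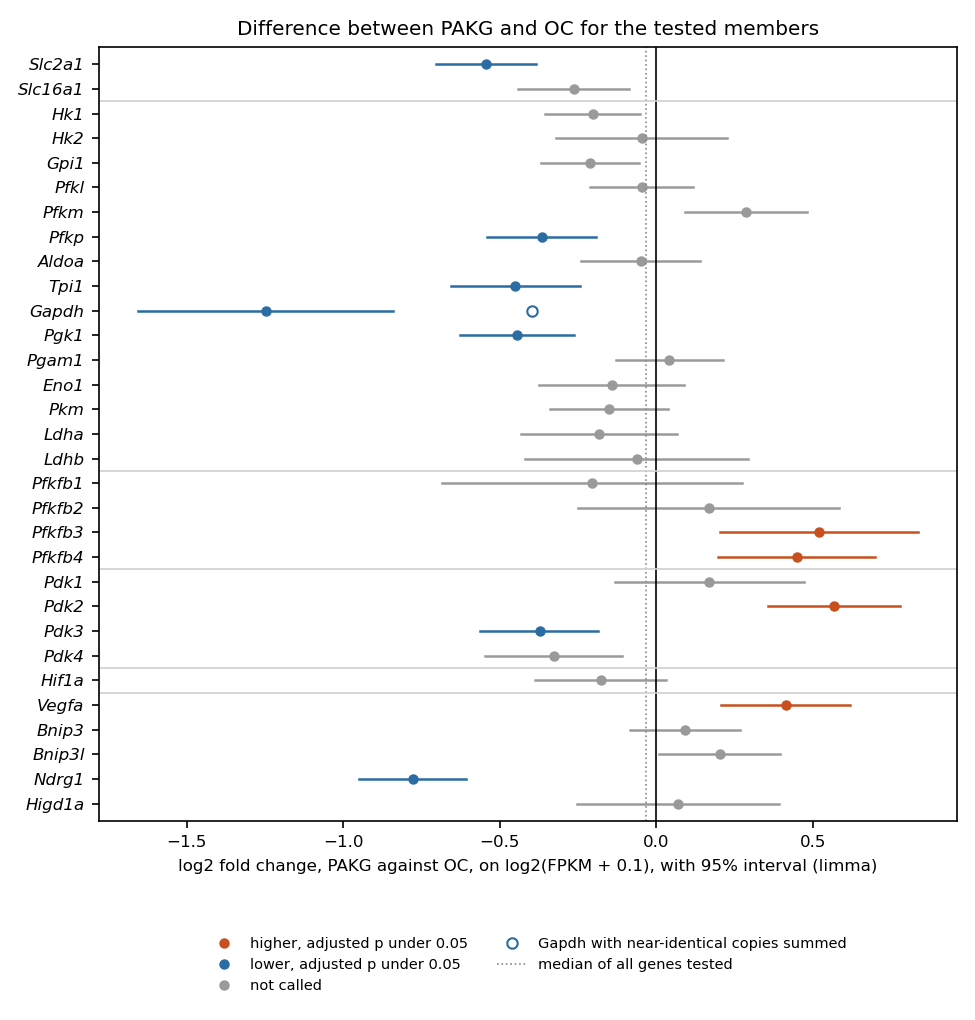
Log2 fold change of PAKG against OC (x axis, on log2(FPKM + 0.1)) with its 95% interval from limma for the 31 tested members, ordered by role, with called members coloured by direction. The called transporter and enzymes lie left of 0 and the called PFKFB enzymes right of it, and the open circle shows Gapdh at -0.40 once its copies are summed.

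Of the HIF factors only Hif1a was expressed above the filter. It was at 25.8, 28.5 and 25.6 FPKM in OC and at 21.9, 26.2 and 22.6 FPKM in PAKG. The groups overlapped, and the log2 fold change of -0.18 (95% interval -0.39 to 0.03, limma adjusted p = 0.243) was called only with the block (0.0381) and without replicate 2 of both groups (0.0456). Epas1, which encodes HIF-2α, was at 0.02 to 0.08 FPKM. A list of 14 genes was drawn up around HIF hydroxylation and turnover. It includes Egln1, Egln2, Egln3 and the von Hippel-Lindau factor, but also Arnt, Arnt2, Hif3a, Cited2, P4ha1 and P4ha2. Of the 14, 12 were tested and limma called 0, beside 14.7% of all genes tested. An unadjusted limma p under 0.05 was found for 2. In 4 of the 12 the groups did not overlap, 2 lower and 2 higher in PAKG, beside 33.4% of all genes tested. With so few genes, 0 calls does not show that the list was unchanged.

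Of the 9 hypoxia-induced genes 5 were tested, 1 rose and 1 fell, beside 5.97% higher and 8.73% lower among all genes tested. Ndrg1, a stress-response gene that is induced by low oxygen and by differentiation in many cells, had the smallest adjusted p of all members. Ndrg1 (ENSMUSG00000005125, chromosome 15, 66929318 to 66969640) was at 9.09, 8.39 and 8.59 FPKM in OC and at 4.80, 5.17 and 5.11 FPKM in PAKG. The groups stood far apart, and the mean fell from 8.69 ± 0.361 to 5.03 ± 0.199 FPKM (SD, n = 3), 1.71-fold on the log2(FPKM + 0.1) scale. On the log2 scale the difference was -0.78 ± 0.07 (standard error; limma adjusted p = 0.000821), and the call held in all 15 alternatives and against a minimum fold of 1.2 (adjusted p = 0.00589).

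Vegfa, the main growth factor of blood vessels and a signal by which osteoblasts attract them, moved the other way. Vegfa (ENSMUSG00000023951, chromosome 17, 46016993 to 46032369) was at 4.02, 4.20 and 4.03 FPKM in OC and at 5.64, 5.87 and 4.94 FPKM in PAKG. It rose without overlap, with a log2 difference of 0.41 ± 0.09 (standard error; limma adjusted p = 0.0215). The call was lost without OC replicate 1 (adjusted p = 0.0723), OC replicate 3 (0.0867) or PAKG replicate 1 (0.0743).

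The mitophagy receptors Bnip3 and Bnip3l and the mitochondrial protein Higd1a were not called. Bnip3 was at 7.05 to 7.94 FPKM in OC and 7.75 to 8.23 FPKM in PAKG. Bnip3l was at 10.5 to 11.6 and 11.5 to 13.3 FPKM, with a limma adjusted p of 0.156, and was called higher with the block (0.0385) and without replicate 2 of both groups (0.0497). A near-identical copy, Bnip3l-ps on chromosome 12, adds to the Bnip3l signal, of which the own row held 73.0% to 77.4%, and the sum gave a log2 fold change of 0.20, as the own row did. Higd1a was at 4.52 to 4.65 and 3.93 to 5.88 FPKM. Ankrd37 (up to 0.27 FPKM) and the carbonic anhydrases Car9 (up to 0.14) and Car12 (up to 0.02), which are strongly induced in hypoxic cells, had means under the filter.

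**Figure D5:**
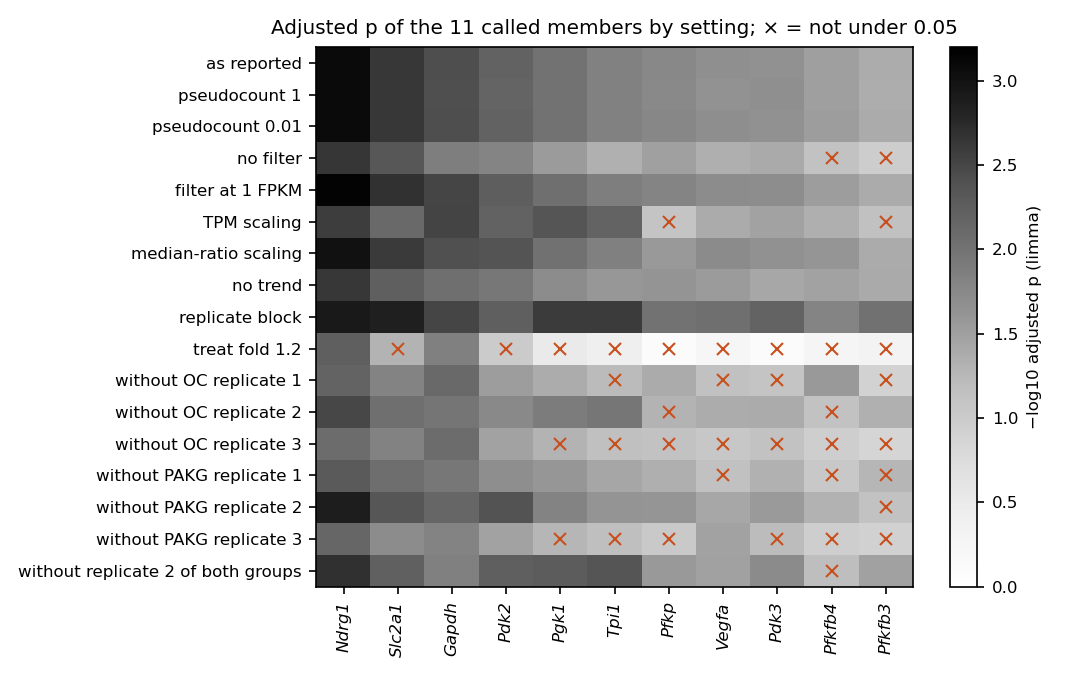
Adjusted p from limma, as −log10 (grey scale), for the 11 called members (columns) under the reported setting and each alternative (rows), with a cross where the adjusted p is not under 0.05. Ndrg1 and Gapdh have no cross, Slc2a1 and Pdk2 have 1 each, in the test against a minimum fold of 1.2, and Pfkfb3 has the most. The Gapdh column is for its own row alone, and the sum with its copies was not put through these alternatives.

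In 4 lists of neighbouring pathway genes and the HIF hydroxylation list, 80 of 109 genes were tested, and 6 rose and 7 fell, a share of 16.2% that is near the 14.7% of all genes tested. Since the split of calls depends on scaling, it is given also for TPM (9 higher, 3 lower) and median-ratio scaling (10 higher, 6 lower). With the replicate block the counts were 14 and 11. Without OC replicate 3 they dropped to 2 higher and 3 lower, and without PAKG replicate 3 to 2 and 2.

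Among 32 tested hypoxia-induced genes that are not members, 5 rose and 4 fell (28.1%), with a median log2 fold change of -0.04. Tgfb3, a growth factor of the TGF-β family, fell by 0.55 on the log2 scale (limma adjusted p = 0.00283), with means of 26.8 ± 1.06 and 18.3 ± 1.06 FPKM (SD, n = 3). Ppp1r3b, which targets a phosphatase to glycogen, was at 0.57 to 0.8 FPKM in OC and 1.58 to 1.98 FPKM in PAKG (log2 fold change 1.15, adjusted p = 0.00535). Pdgfb, a platelet-derived growth factor chain, was at 0.5 to 0.6 and 1.03 to 1.27 FPKM (log2 fold change 0.96, adjusted p = 0.00895; without PAKG replicate 3, 0.0555). Lox, the collagen cross-linking lysyl oxidase, rose by 0.46 on the log2 scale (limma adjusted p = 0.0121), with means of 92.1 ± 5.82 and 127 ± 10.7 FPKM, and the call was lost without OC replicate 1 (0.0514) or OC replicate 3 (0.058).

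Among 16 tested genes of glycolysis and glucose handling outside the members, 1 rose and 0 fell (6.2%). Eno3, the muscle enolase, was at 22.8, 19.1 and 20.5 FPKM in OC and 32.2, 26.3 and 32.6 FPKM in PAKG (limma log2 fold change 0.54, adjusted p = 0.0156). Its call was lost without OC replicate 3 (0.0693), PAKG replicate 1 (0.0556) or PAKG replicate 3 (0.0714). Muscle markers (4 of 6 listed have a row) summed to 0.92 to 1.16 FPKM in OC and 1.94 to 1.99 FPKM in PAKG. Of these, Acta1, the skeletal α-actin, was called higher (log2 fold change 1.45, adjusted p = 0.00282), while Myog and Ckm did not exceed 0.04 FPKM in any library.

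At the entry of pyruvate into the mitochondria, 10 genes were tested and 1 fell (10.0%). Pdp1, the phosphatase that switches pyruvate dehydrogenase on and so opposes the PDK enzymes, was at 22.8, 25.1 and 24.3 FPKM in OC and at 14.2, 13.9 and 13.6 FPKM in PAKG. It fell without overlap (limma log2 fold change -0.79, standard error 0.07, adjusted p = 0.000543), and the call held in all 15 alternatives. In the pentose phosphate list 2 of 10 tested genes (20.0%) fell and 0 rose, namely the phosphoribosyl pyrophosphate synthetases Prps2 and Prps1, which use a product of that pathway for nucleotide synthesis. Prps2 fell by 0.45 on the log2 scale (limma adjusted p = 0.00959), with means of 8.37 ± 0.436 and 6.11 ± 0.342 FPKM (SD, n = 3), and missed the threshold without PAKG replicate 3 (0.0578). Prps1 fell by 0.30 on the log2 scale (limma adjusted p = 0.0189), with means of 31.4 ± 1.16 and 25.5 ± 0.416 FPKM, and the call was lost after TPM rescaling (0.059) and without OC replicate 1 (0.0741), OC replicate 3 (0.0827), PAKG replicate 1 (0.0663) or PAKG replicate 3 (0.0922).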

How the data were processed

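The authors deposited FPKM per gene for each of the 6 libraries, rounded to 2 decimals. The build was GRCm38, and HISAT2, StringTie, cutadapt, DESeq2 and FastQC are listed in the processing notes of the submitters. Tool versions, annotation release and strand setting: not given in the sources used here. As FPKM are not counts, no count model was used. The 12590 genes averaging 0.5 FPKM or more were tested on log2(FPKM + 0.1) with limma 3.58.1 in R 4.3.3 (lmFit and trended eBayes, 2-sided), and p was adjusted over all of them by the Benjamini-Hochberg method. This scale understates changes of low genes. The members and lists were chosen with earlier results of these data known. All members are accounted for. Of each list of other genes up to 4 called genes with the smallest adjusted p are named, and Slc2a10, not called, for its level. A symbol with several gene IDs was represented by the ID with the highest mean. Near-identical copies are transcripts with at least 90% identity over 300 bases and 60% of the copy (blastn 2.17.0). Coordinates are from GENCODE M21. Depth was estimated from low values of genes of 200 to 600 bases. Deviations of same-numbered samples from their group means correlated at 0.24, 0.43 and 0.192, above the minimum of 0.1. OC replicate 1 and PAKG replicate 3 also exceeded it, at 0.138. The replicate number was fitted as a block in an alternative, and what the number marks is not stated. The calling step was tested on simulated data, with 50 genes of each size among 12590. It recovered 56% of changes of 0.5 on the log2 scale, 64% of 0.75, and 92% of 1 and of 1.5. The share of changed genes was smaller there than the 14.7% called in the data. The adjusted p depends on that share, so these rates need not hold for the real comparison. Changes of the size seen in most members may still be missed. Figures were made in Python 3.11.15 with matplotlib 3.10.9.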

Additional observations from a re-analysis of the deposited data

How the results depend on the processing

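Leaving out 1 library at a time gave 331 to 987 genes called higher and 500 to 1240 lower in all, 1 to 3 members higher and 3 to 8 lower, 2 to 11 other pathway genes higher and 2 to 7 lower, a median log2 fold change of the hypoxia-induced genes of 0.056 to 0.216, and a difference of the summed enzymes of -15.7% to -9.77%. Without replicate 2 of both groups, 1204 genes, 4 members and 12 other pathway genes were called higher and 1547, 11 and 8 lower. With the replicate block, 1554 genes, 6 members and 14 other pathway genes were called higher and 2157, 13 and 11 lower; it lost the call of no named gene. TPM scaling gave 715 genes and 3 other pathway genes lower, and median-ratio scaling 10 other pathway genes higher. With no filter 2 members were called higher. Against a minimum fold of 1.2, 0 members were called higher and 2 lower, which is fewer by construction. Summing copies, an alternative chosen after seeing the data, moved the difference of the summed enzymes to -19.0%, in a sum mostly held by Gapdh with its copies. Directions reversed only for genes that were not called, namely Hk2 (-0.127 to 0.05 with 1 library left out), Ldhb (-0.209 to 0.051, and 0.026 with copies summed) and Higd1a (-0.068 to 0.216). Other pseudocounts and no trend changed no call among the members and the called genes named from the other lists. Nor did a filter at 1 FPKM for those still tested, which leaves out Pfkfb1 and Pdgfb. Apart from the minimum fold and the filter, the cause was not tested. Scalings moved the median of all genes by at most 0.047 on the log2 scale. With 3 libraries per group, exact tests cannot go below 0.1, and at under 0.5 FPKM no difference was tested.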
